A study of Arabidopsis thaliana with 6 samples.

Results

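The chloroplast genes *matK*, *ycf3* and *rps16* were taken from a table of 73 chloroplast RNAs by their gene names. Each of the 3 gene names has 1 entry in the table, and the rule uses no measured value. They have in common that the window in which their reads were counted holds intron sequence, since *ycf3* has 2 introns, *rps16* has 1 and *matK* lies inside the intron of *trnK*, the gene of a lysine tRNA. The assay was DO-RIP-Seq, a digestion-optimized form of RNA co-immunoprecipitation followed by sequencing, in wild-type *Arabidopsis thaliana* (Columbia-0) seedlings, 14 days old and kept at 21 °C in long days. In this method RNA and proteins are cross-linked with formaldehyde, the RNA is trimmed by a nuclease, and the fragments that come down with an antibody are sequenced. The 3 input libraries came from the mix of extract and beads before washing, with no antibody selection, and the 3 pellet libraries came from the washed beads with an antibody against CP31A, a chloroplast ribonucleoprotein with RNA recognition motifs. Replicates 1, 2 and 3 are given as biological replicates, and each pellet was compared with the input of the same number. Cross-linking also holds proteins to each other, so RNA in the pellet may have been held by CP31A or by a protein bound to it. The study also ran a precipitation with non-specific IgG as a control, which is not among the libraries used here. RNA carried over on beads or antibody therefore cannot be told apart in these values. The study names both harvested plants and leaf tissue as the material, so the parts taken are not certain. It was bulk material in either case, so that RNA per cell and number of cells cannot be told apart in a level. The table holds chloroplast genes alone, so that no cell type marker could be checked.

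Group II introns are large folded RNAs that many chloroplast genes carry and that leave the precursor RNA as a branched lariat. They descend from self-splicing elements but need proteins in plants, most of them made in the nucleus. MatK is the maturase that the chloroplast genome encodes itself, and in tobacco it associates with introns of the subgroup IIA, among them its own host intron in *trnK* and introns of *atpF*, *rpl2* and *rps12*. The introns of *ycf3* and *rps16* belong to subgroup IIB. Ycf3 is an assembly factor of photosystem I, and *rps16* is named for S16, a protein of the small ribosomal subunit. Whether S16 is made from this gene was not measured.

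The exon and intron borders of the 4 introns are shown to place the introns that lie within or around the counting windows. Positions and bases follow the chloroplast record of RefSeq in assembly TAIR10.1, the record that the study names as well, and the sequences are written 5′ to 3′ on the minus strand, which carries the 3 genes and *trnK*. In the first set, 12 exon bases stand before 18 intron bases, and the first 5 bases of the annotated intron are in capitals.

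*trnK* intron, 5′ border, Pltd:4293-4322: ctcggcttttaaGTGCGactagcatctttt

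*ycf3* intron 1, 5′ border, Pltd:44448-44477: tacagagatggtGCGATttgattatcatta

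*ycf3* intron 2, 5′ border, Pltd:43506-43535: atctgtcattacGTGCGactatctccacta

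*rps16* intron, 5′ border, Pltd:6131-6160: gtagaaagcaacGTACGacttgaattgaag

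In the second set, 18 intron bases stand before 12 exon bases, and the last 2 bases of the annotated intron are in capitals.

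*trnK* intron, 3′ border, Pltd:1740-1769: ggagattatctactccATccgactagttcc

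*ycf3* intron 1, 3′ border, Pltd:43740-43769: gaatgacgaccgtaacGGatgtcggctcaa

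*ycf3* intron 2, 3′ border, Pltd:42725-42754: tgatccgcctattccgACcgtggagaacag

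*rps16* intron, 3′ border, Pltd:5272-5301: atatacatctatcccaACgagccgtttatc

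The letters GTGNG, with which group II introns usually begin, opened 12 of 19 annotated chloroplast introns (63.2%) and occur at 0.142% of positions on both strands of the chloroplast sequence. The 19 count inverted repeat copies as 1, leave out *rps12*, which is partly joined from separate RNAs, and hold the intron of *trnL*, which is a group I intron. The letters opened the *trnK* intron and intron 2 of *ycf3*. Intron 1 of *ycf3* is annotated to begin with GCGAT, and GTGCG starts at an offset of -2 nt from that border. At the same offset its 3′ end reads AC, as the end of intron 2 does. The *rps16* intron began with GTACG, which is not GTGNG, and ended with AC. A border offset of this size does not touch the counts, because each window runs through the introns.

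The window of *matK* ran from 1956 to 3670 (1715 nt), that of *rps16* from 4984 to 6288 (1305 nt) and that of *ycf3* from 42484 to 44691 (2208 nt), each with 100 nt before and after the gene. The whole *matK* window lay inside the *trnK* intron, which runs from 1752 to 4310 (2559 nt) and leaves 640 nt upstream and 204 nt downstream of the window. Reads from a *matK* mRNA, from unspliced *trnK* RNA and from the excised intron therefore cannot be told apart in the *matK* value. Of the *ycf3* window, introns of 714 and 787 nt made up 68.0%, against 507 nt of coding exons. Of the *rps16* window, the intron of 865 nt made up 66.3%, against exons of 40 and 200 nt. No window of another protein-coding gene overlapped any of the 3 on the same strand. The nearest were *psbA*, 411 nt downstream of the *matK* window, and *rps4* and *psaA*, 431 nt upstream and 526 nt downstream of the *ycf3* window. The AT content was 69.0% for *matK*, 68.7% for *rps16* and 66.2% for *ycf3*, against a median of 66.1% over 72 windows.

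**Figure D1:**
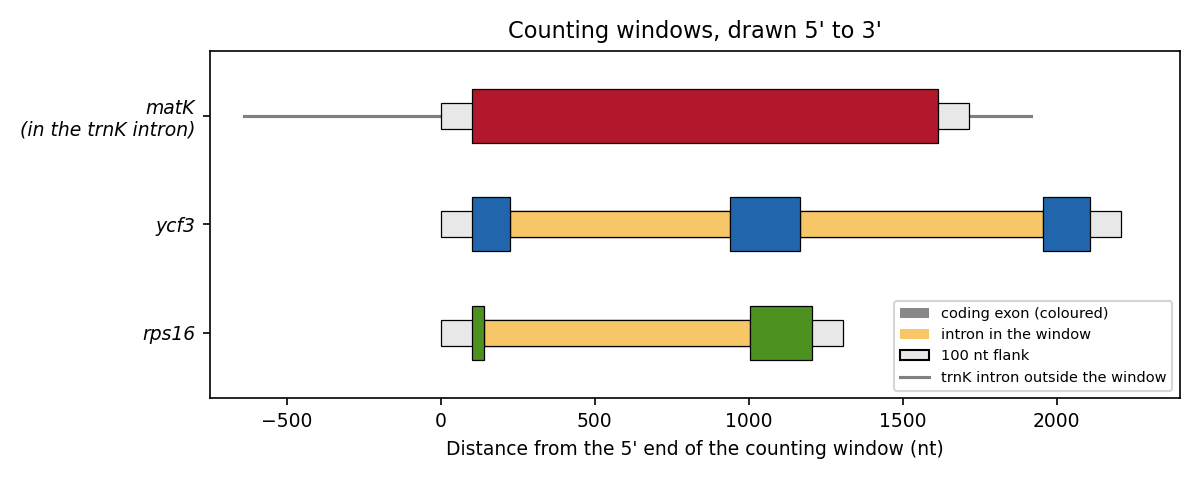
Counting windows of *matK*, *ycf3* and *rps16* drawn to scale from 5′ to 3′, with distance from the 5′ end of the window in nt. Coloured blocks are coding exons, yellow blocks introns, light blocks the flanks of 100 nt, and the grey line the *trnK* intron on both sides of the *matK* window. Introns take up 68.0% of the *ycf3* window and 66.3% of the *rps16* window.

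Over the 73 RNAs the inputs held 24224 to 73526 reads and the pellets 251570 to 392286 reads, with the copies of genes in the inverted repeat averaged. The reads were computed from TPM and window length. Input 1 had the fewest reads and stood apart, with a Pearson's r of log2 TPM of 0.92 and 0.93 with inputs 2 and 3, which correlated at 0.99. The pellets correlated at 0.995 to 0.999 (correlations across 73 RNAs, which are not replicates). The values below are TPM, that is reads per length of the window scaled to the same total in each library. Enrichment is the log2 ratio of pellet TPM to input TPM within a replicate, as the mean of 3 pairs. The test was limma's, fitted to the log2 TPM of all 73 RNAs blocked by replicate. It was two-sided, and p-values were adjusted after Benjamini and Hochberg. An RNA passed where the adjusted p was under 0.05.

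*matK* was enriched in the CP31A pellets, by 2.20-fold, *ycf3* had a value of 1.39-fold that did not pass the test, and *rps16* had nearly the same TPM in pellets and inputs. Of the 73 RNAs, 36 were enriched (49.3%) and 1 was depleted (1.37%), so that 1 of 3 called here is not above the share among all RNAs. In 3 of 3 pairs the pellet was above the input for *matK* and *ycf3*, as for 49 of the 73 RNAs (67.1%). The order *matK*, *ycf3*, *rps16* was the same in each of the 3 pairs, and it was also the order of their levels in each of the 6 libraries. On the scale of enrichment they held ranks 20, 44 and 62 of 73.

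The maturase gene *matK* had 2291, 2996 and 3485 TPM in inputs 1, 2 and 3. In pellets 1, 2 and 3 it had 6241, 6199 and 6565 TPM. Each pellet lay above each input, which was so for 46 of the 73 RNAs (63.0%). The inputs spread more than the pellets, with a mean of 2924 ± 600 TPM against 6335 ± 200 TPM (SD, n = 3). Input 1 was the lowest, at -0.50 on the log2 scale against the mean of the other inputs. The log2 enrichment was 1.45, 1.05 and 0.91 in the pairs of replicates 1, 2 and 3. Its mean was 1.14 ± 0.28 (SD, n = 3 pairs, 95% interval from limma 0.61 to 1.66, adjusted p = 0.00428 from limma). At least 2-fold enrichment that passed was found for 25 RNAs (34.2%), *matK* among them. Without replicate 1 *matK* still passed, at 0.98, which is below 2-fold, and it passed at 1.18 without replicate 2 and at 1.25 without replicate 3.

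These values rest on 82, 295 and 371 input reads and on 2411, 3254 and 4030 pellet reads. Counting error alone gave exact binomial 95% intervals of 1.13 to 1.78, 0.88 to 1.23 and 0.76 to 1.07 for the log2 enrichment of the 3 pairs. The interval of pair 1 overlapped that of pair 2 and lay above that of pair 3. The SD between pairs, 0.28, was larger than the 0.12 that counting alone would give. Set against the median RNA of the pair, *matK* was higher by 0.87, 0.32 and 0.16 in pairs 1, 2 and 3, most in pair 1.

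Next in rank to *matK* by enrichment were *cemA*, which encodes a protein of the chloroplast envelope (1.18 ± 0.59), and *rps2* for the small ribosomal subunit (1.12 ± 0.52; SD, n = 3 pairs). Neither differed from *matK* beyond the spread between pairs, with mean differences of 0.05 (95% interval -0.55 to 0.65) and -0.02 (95% interval -0.98 to 0.94). Over the 3 pairs the enrichment most like that of *matK* belonged to *psbN*, needed for the assembly of photosystem II, with a root mean square difference of 0.11. *petG* of the cytochrome *b*6*f* complex (0.17) and *rpoC2* of the plastid RNA polymerase (0.18) came next. *psbA*, the gene downstream of *trnK* on the same strand, encodes the D1 protein of photosystem II and was the most abundant RNA. Its enrichment was lower than that of *matK* in 3 of 3 pairs, by a log2 difference of -1.56 ± 0.11 (SD, n = 3 pairs). Its adjusted p was 0.0332 in the limma fit of 72 RNAs set against *matK*, of which 5.56% were lower and 1.39% higher. Without replicate 3 the difference was -1.60 and missed the threshold (limma, adjusted p = 0.242).

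The photosystem I assembly gene *ycf3* had 2192, 1814 and 2065 TPM in inputs 1, 2 and 3. In pellets 1, 2 and 3 it had 2743, 2882 and 2796 TPM. Here too each pellet lay above each input, with a mean of 2024 ± 192 TPM over inputs and 2807 ± 70.5 TPM over pellets (SD, n = 3). The log2 enrichment was 0.32, 0.67 and 0.44 in the pairs of replicates 1, 2 and 3. The mean was 0.48 ± 0.18 (SD, n = 3 pairs, 95% interval from limma -0.03 to 0.98, adjusted p = 0.103 from limma), so the test did not tell it from 0. Without replicate 1 the value was 0.55 and passed (limma, adjusted p = 0.000199). With 2 pairs left the fits gave each RNA the same standard error, 0.14 without replicate 1, 0.41 without replicate 2 and 0.45 without replicate 3, and so do not measure the spread of *ycf3* or *matK* itself between the remaining pairs. It also passed with pellets and inputs as unpaired groups (adjusted p = 0.0489 from limma).

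Input reads for *ycf3* numbered 101, 230 and 283, and pellet reads 1364, 1948 and 2210. The exact binomial 95% intervals of its log2 enrichment were 0.03 to 0.63, 0.47 to 0.87 and 0.26 to 0.62 in the 3 pairs, each above 0 as far as counting error goes. In each pair *ycf3* lay below the median RNA, by -0.25, -0.06 and -0.32. The most similar values over the 3 pairs were those of *psbH* of photosystem II (root mean square difference 0.12), *petD* of the cytochrome *b*6*f* complex (0.15), which has an intron too, and *rps4* (0.17). *rps4* is also the gene upstream of *ycf3* on the same strand, and its log2 enrichment was 0.35 ± 0.12 (SD, n = 3 pairs). *psaA*, the gene downstream of *ycf3*, encodes a core protein of photosystem I. Its enrichment was lower than that of *ycf3* in 3 of 3 pairs, by a log2 difference of -0.90 ± 0.10 (SD, n = 3 pairs). Its adjusted p was 0.0314 in the limma fit of 72 RNAs set against *ycf3*, of which 4.17% were lower and 5.56% higher. Leaving out replicate 2 or replicate 3 gave -0.93 in each case, and neither passed (limma, adjusted p = 0.236 and 0.219).

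The ribosomal protein gene *rps16* had 220, 240 and 222 TPM in inputs 1, 2 and 3. In pellets 1, 2 and 3 it had 201, 253 and 221 TPM. The groups overlapped, while *psaA*, *psbA* and *rbcL*, that is 3 RNAs (4.11%), had each pellet below each input. For *rps16* the mean was 228 ± 11.0 TPM over inputs and 225 ± 26.3 TPM over pellets (SD, n = 3). The log2 enrichment was -0.13, 0.07 and -0.01 in the pairs of replicates 1, 2 and 3. Its mean was -0.02 ± 0.10 (SD, n = 3 pairs, 95% interval from limma -0.52 to 0.47, adjusted p = 0.967 from limma).

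Few reads stand behind *rps16*. Inputs 1, 2 and 3 had 6, 18 and 18 and pellets 1, 2 and 3 had 59, 101 and 103, and *rps16* held rank 71 of 73 by reads over the inputs. The exact binomial 95% intervals of the log2 enrichment were -1.34 to 1.37, -0.66 to 0.89 and -0.74 to 0.80. The SD between the 3 pairs, 0.10, was smaller than the 0.47 that counting alone would give, so the closeness of the 3 pairs is not a measure of precision. The standard error from limma, 0.22, was also below that from counting alone, 0.27, so the limma interval of *rps16* is narrower than its reads allow. PCR duplicates had been collapsed by molecular identifier, and these intervals cover counting error only.

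Both RNAs next to *rps16* in input level had a higher enrichment than *rps16*. They were *ndhH*, a subunit of the NDH complex (250 ± 98.9 TPM; 5, 17 and 31 input reads), and *rpoC2*, a subunit of the plastid RNA polymerase (216 ± 28.8 TPM; 17, 53 and 66 input reads). The log2 enrichment of *ndhH* exceeded that of *rps16* by 1.48 ± 0.49 (SD, n = 3 pairs, limma, adjusted p = 0.00846). That of *rpoC2* exceeded it by 1.04 ± 0.21 (SD, n = 3 pairs, limma, adjusted p = 0.0111), and both held in 3 of 3 pairs. The standard error of 0.27 from counting alone for *rps16* enters both differences, so these p-values may be smaller than the reads allow. Over the 72 RNAs set against *rps16*, 54.2% were higher by this test and 1.39% lower, so a higher value is not particular to these neighbours. Leaving out replicate 2 gave 1.10 for *rpoC2*, which did not pass (limma, adjusted p = 0.0616), and leaving out replicate 3 gave 1.10, which missed the threshold narrowly. Over the 3 pairs the values most like those of *rps16* were those of *psbC* of photosystem II (root mean square difference 0.098), *rpl33* of the large ribosomal subunit (0.19) and *rps14* (0.19).

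**Figure D2:**
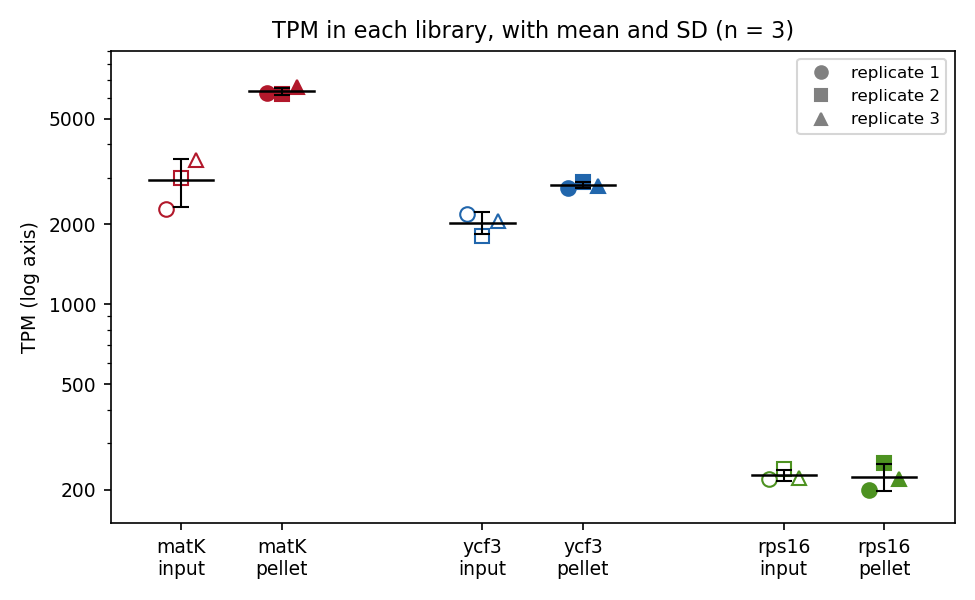
TPM (log axis) of *matK*, *ycf3* and *rps16* in the 3 input libraries (open symbols) and the 3 pellet libraries (filled symbols), with the mean and the SD (n = 3). For *matK* and *ycf3* each pellet lies above each input, and for *rps16* inputs of 220 to 240 TPM overlap pellets of 201 to 253 TPM.

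**Figure D3:**
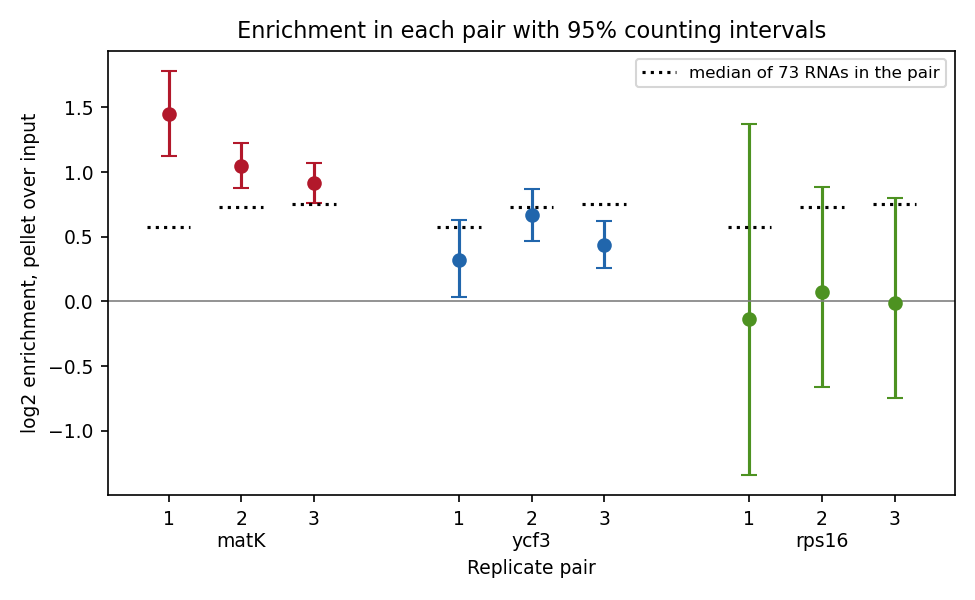
Log2 enrichment of pellet over input in each replicate pair for the 3 genes, with exact binomial 95% intervals for counting error and, as dotted lines, the median of the 73 RNAs in that pair. *matK* lies above the median in each pair, by 0.87, 0.32 and 0.16 in pairs 1, 2 and 3. *ycf3* and *rps16* lie below it, and the intervals of *rps16* are the widest.

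Differences between the genes do not depend on how the libraries were scaled, because the scaling cancels within a library. The ratio of *matK* to *rps16* in inputs 1, 2 and 3 was 10.4, 12.5 and 15.7. In pellets 1, 2 and 3 it was 31.1, 24.5 and 29.8. The log2 enrichment of *matK* exceeded that of *rps16* by 1.16 ± 0.36 (SD, n = 3 pairs, 95% interval 0.62 to 1.70, adjusted p = 0.0111 from limma over 72 RNAs set against *rps16*), in 3 of 3 pairs. By this test 54.2% of the 72 RNAs were higher than *rps16*, so passing it is not particular to *matK*. With all RNAs set against *matK* instead, the same difference missed the threshold (limma, adjusted p = 0.0603). *matK* was 1.05, 1.65 and 1.69 times as high as *ycf3* in inputs 1, 2 and 3. Pellets 1, 2 and 3 had ratios of 2.28, 2.15 and 2.35. The difference in log2 enrichment was 0.66 ± 0.40 (SD, n = 3 pairs, 95% interval 0.08 to 1.24), which after adjustment missed the threshold (limma, adjusted p = 0.110). It was 1.12 in the pair of replicate 1 and 0.38 and 0.48 in the other pairs. Leaving out replicate 1 lowered it to 0.43, which passed (limma, adjusted p = 0.0109). That fit gave each RNA the same standard error, 0.15, so this p does not measure the spread of the difference between the remaining pairs. Between *ycf3* and *rps16* the ratio was 9.95, 7.55 and 9.29 in inputs 1, 2 and 3. Pellets 1, 2 and 3 had 13.7, 11.4 and 12.7. Here the difference was 0.50 ± 0.08 (SD, n = 3 pairs, 95% interval 0.04 to 0.96) and did not pass (limma, adjusted p = 0.0635). Leaving out replicate 1 gave 0.52, which passed (limma, adjusted p = 0.00269). Counting alone gave *rps16* a standard error of 0.27. The standard errors from limma were smaller, 0.22 for *matK* minus *rps16* and 0.19 for *ycf3* minus *rps16*. Without replicate 1 they were 0.10 to 0.17 over all RNAs set against *rps16*. Intervals and p-values of both differences are therefore tighter than the reads of *rps16* allow. An exact sign-flip test over the 3 pairs gave p = 0.25 for each of the 3 differences, the smallest that 3 pairs allow.

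The enrichment values depend on how libraries are scaled, and for *ycf3* so does the sign. TPM share a fixed total, of which a few abundant mRNAs take most, and the median RNA had a log2 enrichment of 0.71. With every library centred on its median, *matK* was at 0.31 (limma, adjusted p = 0.334) and *ycf3* at -0.35 (limma, adjusted p = 0.242). *rps16* was depleted on that scale, at -0.85 (limma, adjusted p = 0.0348), as were 12.3% of the RNAs, and the median RNA was at -0.12. The standard error of 0.27 from counting alone for *rps16* holds on this scale too, so this p may be smaller than its reads allow. Rescaled without *psbA*, *rbcL* and *psbC*, the 3 most abundant RNAs of the input, the values were 0.65 for *matK*, -0.01 for *ycf3* and -0.51 for *rps16*, and none of the 3 passed. The median RNA was then at 0.29. The ranks of 20, 44 and 62 were the same on the 3 scales.

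**Figure D4:**
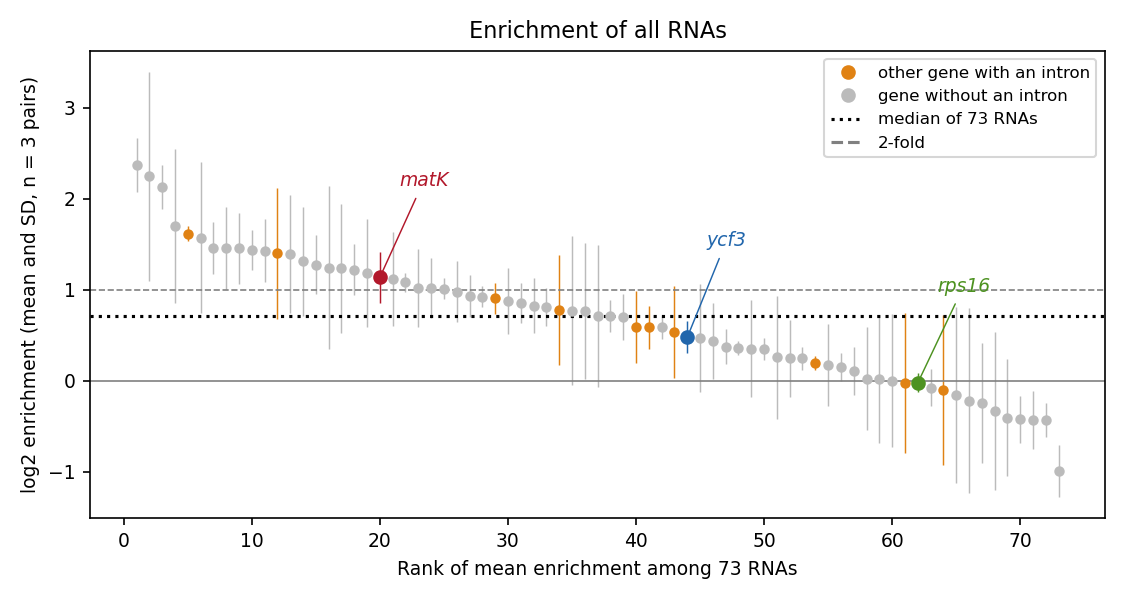
Mean log2 enrichment with SD (n = 3 pairs) of the 73 RNAs in order of rank, with *matK*, *ycf3* and *rps16* named and the other intron-containing genes in orange. *matK* (rank 20) lies above the 2-fold line and above the median of 0.71, *ycf3* (rank 44) and *rps16* (rank 62) below the median.

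Among the 12 genes with an intron in their coding region, to which *ycf3* and *rps16* belong, 4 were enriched and 8 did not pass, against 49.3% enriched of all RNAs. The 4 were *ndhA* (1.61) and *ndhB* (1.40) for the NDH complex, *rpoC1* (0.91) for the plastid RNA polymerase and *rps12* (0.78). The median log2 enrichment was 0.56, against 0.71 for all RNAs and 0.77 for the 61 without such an intron, and it was 0.51 without *ndhA* and *ndhB*. *ycf3* lay between *atpF* (0.54) and *clpP* (0.20), a subunit of the Clp protease. *rps16*, *rpl16* (-0.02) and *rpl2* (-0.10) had the lowest values. In *rpl16* and *rpl2*, both for the large ribosomal subunit, the low mean came from pair 1, with -0.91 and -1.06 against 0.31 to 0.45 in the other pairs. On the log2 scale, input 1 was higher than the mean of the other inputs by 1.31 and 1.48 for these genes. For *ycf3* and *rps16* input 1 differed by 0.18 and -0.07. The number of the 12 that were enriched was 10 without replicate 1, 2 without replicate 2 and 2 without replicate 3, while over all 73 RNAs it was 58, 26 and 21. These counts come from fits with a standard error shared by all RNAs, 0.14, 0.41 and 0.45 in the same order. The part of input 1 in the enrichment values and counts was not tested beyond leaving it out.

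Of the genes whose introns MatK is known to bind in tobacco, *rps12* was enriched, and *atpF* of the ATP synthase (0.54 ± 0.50, SD, n = 3 pairs, limma, adjusted p = 0.111) and *rpl2* did not pass. The median of the 3 was 0.54, and they were not tested against *matK*. Across 11 of the 12 genes, without *rps12*, the share of intron in the window and the log2 enrichment had a Pearson's r of -0.58. *ycf3* and *rps16* have the largest shares of the 11, and *ndhB* (28.3%) and *rpoC1* (26.1%) the smallest. Across 72 windows AT content and log2 enrichment had a Pearson's r of 0.34. Both are descriptions across genes of the same libraries, and genes are not replicates.

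**Figure D5:**
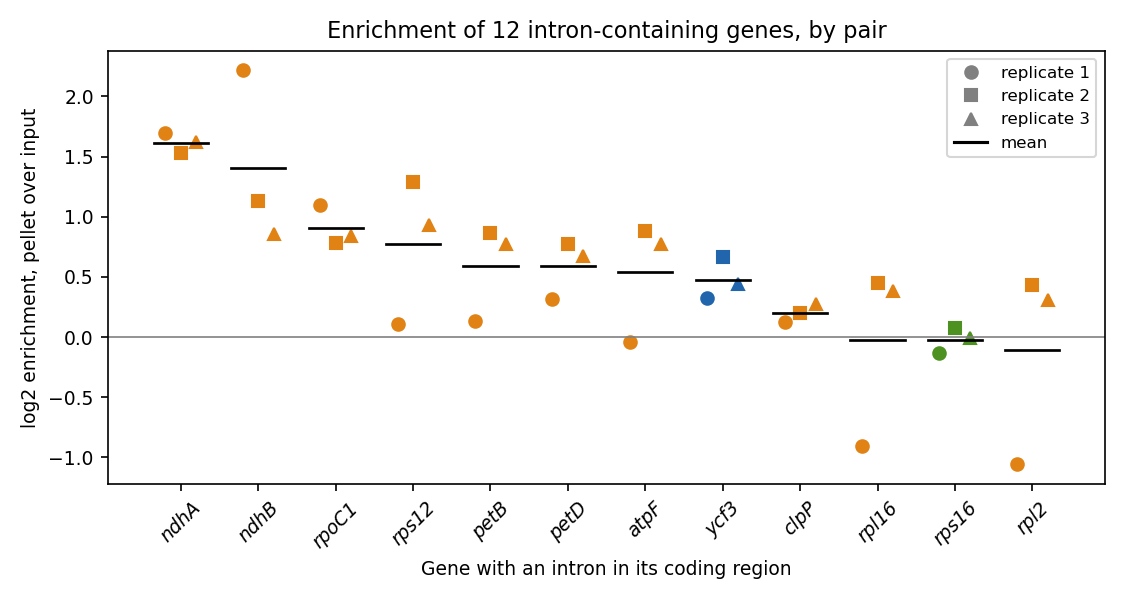
Log2 enrichment of the 12 genes with an intron in the coding region, in each replicate pair (symbols) and as the mean (line), in order of the mean. The 3 pairs of *ycf3* and of *rps16* lie within 0.32 to 0.67 and -0.13 to 0.07, while in *rpl16* and *rpl2* pair 1 lies below 0 and the others above.

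Among 7 genes for photosystem I and its assembly, *psaI* (1.31) and the assembly gene *ycf4* (0.88) were enriched, and *ycf3* and 4 others did not pass, against 49.3% enriched of all RNAs. None of the 7 passed in the one-sided paired test of the methods after Benjamini-Hochberg adjustment, by which 20 of the 73 RNAs passed, and 4 of the 7 had an unadjusted p under 0.05 in it. *ycf4* had nearly the same input level as *ycf3*, with 2097 ± 611 TPM. Its enrichment was higher in 3 of 3 pairs, by 0.40 ± 0.50 (SD, n = 3 pairs, 95% interval -0.26 to 1.07), which did not pass (limma, adjusted p = 0.237) and fell to 0.12 without replicate 1. *psaJ* (0.47 ± 0.60), *psaB* (0.38 ± 0.19) and *psaC* (0.25 ± 0.42, SD, n = 3 pairs) had positive means below that of *ycf3*, and *psaA* had the lowest mean (-0.43). In pair 1 *psaJ* (-0.19) and *psaC* (-0.20) lay below 0, while *ycf3* was at 0.32. The list had a median of 0.47. The number enriched was 5 without replicate 1 and 1 without replicate 2 or 3, against 58, 26 and 21 of all 73 RNAs.

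Of the 10 genes measured for the small ribosomal subunit, 5 were enriched, with *rps2* (1.12) the highest and *rps12* (0.78), which has an intron too, among them. That is close to the 49.3% of all RNAs. *rps16* was among the 5 that did not pass, and *rps18* (-0.24) alone had a lower value. The median of the 10 was 0.77. The number enriched was 7 without replicate 1, 2 without replicate 2 and 1 without replicate 3, again against 58, 26 and 21 of all 73 RNAs. *rps15* and *rps19* were not analysed here.

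TPM divides by the whole window. If reads had come from spliced RNA alone, the reads per length would be 3.12 times the given value for *ycf3* and 2.97 times for *rps16*, which would put them at 6320 and 675 TPM in the inputs, at ranks 23 and 59 in place of 44 and 71. The enrichment does not change with this, as the same window length stands in pellet and input. The deposited values do not separate reads of exons from reads of introns, and the balance of spliced and unspliced RNA was not measured. Whether *rps16* RNA is spliced at all in these seedlings was not measured either, so its value for spliced RNA is arithmetic on window length only.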

How the data were processed

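Per the methods and the processing notes of the submitters, adapters were removed with Trim Galore 0.6.4 and reads kept by size. STAR 2.5.3 mapped them to TAIR10, and UMI-tools 0.5.4 then collapsed PCR duplicates. Coding-strand reads were assigned with featureCounts to windows of each chloroplast protein-coding gene that include introns and flanks of 100 nt. Genes below a minimum of reads in a library were dropped, and the authors deposited TPM for 77 gene entries. The authors also deposited log2 TPM, which differed from log2 of the deposited TPM by at most 3.55e-15. A further 2 columns, with the authors' own mean enrichment and its p-value, were not used. The members and gene lists were chosen with earlier results of these data known.

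Copies in the inverted repeat were averaged, which gave 73 RNAs. TPM multiplied by window length and by the smallest factor per library that gave whole numbers yielded reads, whole within 0.0001 for 75 of 77 entries with annotated windows. For *rps12* and *psbC* windows of 995 and 1586 nt were fitted. Differences between genes were tested by subtracting a gene's log2 TPM from all others in each library before the fit with limma 3.58.1 (R 4.3.3; lmFit, eBayes), with adjustment over 72 RNAs. No pseudocount was used. Python 3.11.15, scipy 1.17.1 and matplotlib 3.10.9 were used for intervals and plots. Pellet and input of a number come from the same incubation, so the replicate was the block. Deviations from the group means correlated at 0.17, 0.30 and -0.03 within replicate numbers 1, 2 and 3. Between unlike numbers they correlated at -0.27 to 0.19, so the values themselves show little sign of pairing. Libraries of a group differed by 12.5 to 47.1 in chi-square per degree of freedom, so none was a repeat of another.

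Genes named are the 3 members, their neighbours on the same strand and in rank, the 3 most similar to each by root mean square difference of the 3 pair values, and called, highest and lowest members of the lists, of which some are not reported here. *clpP*, *psaB* and *psaC* were named in their lists after their values were seen. Alternatives were other scalings, pseudocounts of 1 and 100 TPM, a filter on low values, no block, each replicate left out, a variance trend, the one-sided paired test of the methods and separate copies.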

Additional observations from a re-analysis of the deposited data

How the results depend on the processing

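With each library centred on its median, 4 RNAs were enriched, 3 of them at least 2-fold, with *matK* at 0.31 (no longer passing), *rps16* at -0.85 (now passing) and medians of -0.27, -0.058 and -0.36 for the genes with an intron, the small ribosomal subunit and photosystem I with its assembly factors, of which 1, 0 and 0 genes were enriched (1, 0 and 0 in limma at an unadjusted p under 0.05) and 1, 2 and 1 depleted. Rescaled without the 3 most abundant RNAs, 5 were enriched, 3 at least 2-fold, with *matK* at 0.65 (no longer passing) and medians of 0.080, 0.29 and -0.014, with 1, 0 and 0 genes enriched (unadjusted 1, 2 and 0) and 0, 0 and 1 depleted (unadjusted 1, 2 and 1). The one-sided paired test of the methods, after Benjamini-Hochberg adjustment, gave 20 enriched RNAs, 12 of them at least 2-fold, with 2, 3 and 0 of the 3 lists (unadjusted 6, 5 and 4), and *matK* passed. With no replicate block *ycf3* passed at 0.48 (limma, adjusted p = 0.0489), and the intron list had 7 enriched genes in place of 4. With a replicate left out, 21 to 58 RNAs were enriched, *ycf3* ranged from 0.38 to 0.55, *matK* minus *ycf3* from 0.43 to 0.80 and *ycf3* minus *rps16* from 0.45 to 0.53. In each, the case without replicate 1 passed or gave the most calls. The enrichment fits had a standard error shared by all RNAs, which enters these calls. It was 0.14 without replicate 1, 0.41 without replicate 2 and 0.45 without replicate 3. Why replicate 1 differed was not tested. A filter that left out the 19 RNAs of lowest mean TPM removed *rps16*, which then had no value, nor did its differences. Pseudocounts of 1 and 100 TPM, a variance trend and separate copies changed no call of *matK*, *ycf3* or *rps16* or of the differences between them. Depth limits *rps16*, with 6 to 18 reads in an input, also where it passed with each library centred on its median.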
